A study of Mus musculus with 16 samples.

Results

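Sterol synthesis, sensing and storage were described through 29 listed genes in the hippocampus of 3xTg-AD mice fed a control or a pioglitazone diet. For each gene the probe set with the highest mean over the 16 arrays was taken among probe sets that the platform annotation ties to a single symbol. That gave a value for 27 of the 29 genes, all 27 above the filter on low values, among 18193 genes with such a probe set and 12266 genes tested. Acat2 and Soat1 had no single-symbol probe set, so their expression was not analysed here, and they enter only the search of promoter sequences. The members were 5 genes of the mevalonate steps, 4 of the prenyl to squalene steps, 10 of the lanosterol to cholesterol steps, 4 of sterol sensing and 4 of transport and turnover.

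RNA of the hippocampus of 16 female mice was measured on Affymetrix arrays, 1 array for each numbered subject. Every animal was 14 months old and of the 3xTg-AD strain, which carries mutant human APP and tau transgenes driven in neurons by a Thy1 promoter on a mutant presenilin-1 knock-in. The control group was 8 animals, numbered 1 to 8, on a control diet. The PIO group was 8 animals, numbered 9 to 16, which from 10 months of age ate a diet with 84 ppm of pioglitazone (PIO), about 18 mg per kg of body weight a day, for about 14 weeks. Pioglitazone is a thiazolidinedione, a drug class that activates the nuclear receptor PPAR gamma. All animals carried the disease transgenes, so the comparison was between diets within that genotype.

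Cells build cholesterol from acetyl-CoA through mevalonate, the prenyl diphosphates, squalene and lanosterol. When membrane sterol is low, the escort protein SCAP carries the transcription factor SREBP-2 out of the endoplasmic reticulum, and SREBP-2 then activates most enzymes of the pathway. When sterol is high, INSIG proteins hold the complex back. The adult brain makes nearly all of its own cholesterol, much of it in astrocytes and in the oligodendrocytes that build myelin, and neurons export the excess as an oxidised sterol.

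The start regions of 5 members are shown first. SREBP-2 is known to act near gene starts together with the factors NF-Y and Sp1. Whether these factors had a part in the expression values given below was not tested. A RefSeq table of promoters held 24 of the 29 members, in 30 windows of 250 bases upstream of a gene start (GRCm38.p6). It had no window for Sqle, Fdps, Fdft1, Stard4 and Npc1, so the motif counts do not cover them. Letters are 5′ to 3′ in the direction of the gene. Capitals mark the CCAAT box that NF-Y binds (CCAAT, or ATTGG on the other strand) and the shorter form of the sterol response element (CACNCCAC, on either strand).
Hmgcs1, chr13:119690101-119690350, plus strand: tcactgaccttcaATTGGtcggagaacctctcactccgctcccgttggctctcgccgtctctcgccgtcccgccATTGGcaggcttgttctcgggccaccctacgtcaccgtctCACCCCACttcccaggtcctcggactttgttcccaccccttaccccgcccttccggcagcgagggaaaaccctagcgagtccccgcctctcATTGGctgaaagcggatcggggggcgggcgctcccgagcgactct
Mvk, chr5:114444019-114444268, plus strand: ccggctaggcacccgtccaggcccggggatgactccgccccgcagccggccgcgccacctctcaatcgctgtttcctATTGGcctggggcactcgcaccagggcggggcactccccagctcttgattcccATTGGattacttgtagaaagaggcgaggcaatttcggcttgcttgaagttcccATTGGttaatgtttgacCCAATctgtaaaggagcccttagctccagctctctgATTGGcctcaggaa
Nsdhl, chrX:72918271-72918520, plus strand: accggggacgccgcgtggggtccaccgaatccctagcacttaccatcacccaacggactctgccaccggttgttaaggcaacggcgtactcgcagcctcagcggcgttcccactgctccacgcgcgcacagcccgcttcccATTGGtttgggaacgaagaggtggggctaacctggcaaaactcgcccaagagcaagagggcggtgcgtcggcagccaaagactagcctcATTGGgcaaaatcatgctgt
Ebp, chrX:8193513-8193762, minus strand: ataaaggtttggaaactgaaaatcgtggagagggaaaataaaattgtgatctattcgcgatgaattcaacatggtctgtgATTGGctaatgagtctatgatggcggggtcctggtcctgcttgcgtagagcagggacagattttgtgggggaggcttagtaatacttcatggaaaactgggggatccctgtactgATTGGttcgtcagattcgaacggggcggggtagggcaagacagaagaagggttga
Insig1, chr5:28071162-28071411, plus strand: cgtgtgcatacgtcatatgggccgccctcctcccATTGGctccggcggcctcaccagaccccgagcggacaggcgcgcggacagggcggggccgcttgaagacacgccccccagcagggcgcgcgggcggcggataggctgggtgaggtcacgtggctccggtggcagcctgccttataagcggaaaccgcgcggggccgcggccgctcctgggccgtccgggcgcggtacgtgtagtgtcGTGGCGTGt

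The CCAAT box was found in the upstream windows of 22 of 24 members, beside 37.5% of 27025 genes in the same table. The Sp1 box GGGCGG was found in 21 of 24, beside 35.4% of genes. By window rather than by gene, 22 of 30 member windows held CCAAT, beside 33.8% of 32851 windows. The Mvk window held 5 CCAAT boxes, the Hmgcs1 window held 3, and those of Nsdhl and Ebp held 2 each. The windows were not matched on base composition.

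The 9-base sterol response element TCACNCCAC occurred in 1 of 24 members, Hmgcs1, where it began 137 bases upstream, and in 1.22% of all genes. Its 8-base form CACNCCAC lies inside it and occurred in 3 members, Hmgcs1, Insig1 and Acat2, beside 6.05% of all genes. The PPAR response element, searched as a direct repeat with a single spacer base, was in 0 of 24 members and in 0.4% of all genes. These are matches of letters on both strands and not measured binding sites.

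With regard to diet, no sterol gene passed the test. By limma with Benjamini-Hochberg adjustment over 12266 genes, 0 of 27 members were called at an adjusted p under 0.05, and over all genes the share called was 0.0%. At an unadjusted p under 0.05 limma gave 1 of 27 members, Npc1, which was lower, beside 859 genes or 7.0% of all genes (3.86% higher and 3.15% lower), so the members' count was no higher than the background. Of the 27 members, 14 were higher and 13 lower in PIO. Their median difference was 0.0006 log2 units, beside 0.0045 over all genes, and their median absolute difference was 0.047, beside 0.050 over all genes.

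By the probe set used for each gene, the differences ran from -0.17 for Mvk to 0.096 for Hmgcs1. The outermost bounds of the 27 limma 95% intervals were -0.40 and 0.29 log2 units. Those bounds belong to Mvk and Mvd, and most intervals were narrower, such as -0.11 to 0.070 for Insig2 and -0.10 to 0.10 for Fdft1. In 0 of 27 members did the control and PIO animals separate without overlap, which 0.0326% of all genes did. In bulk tissue, fewer cells of a type and less RNA per cell cannot be told apart.

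**Figure D1:**
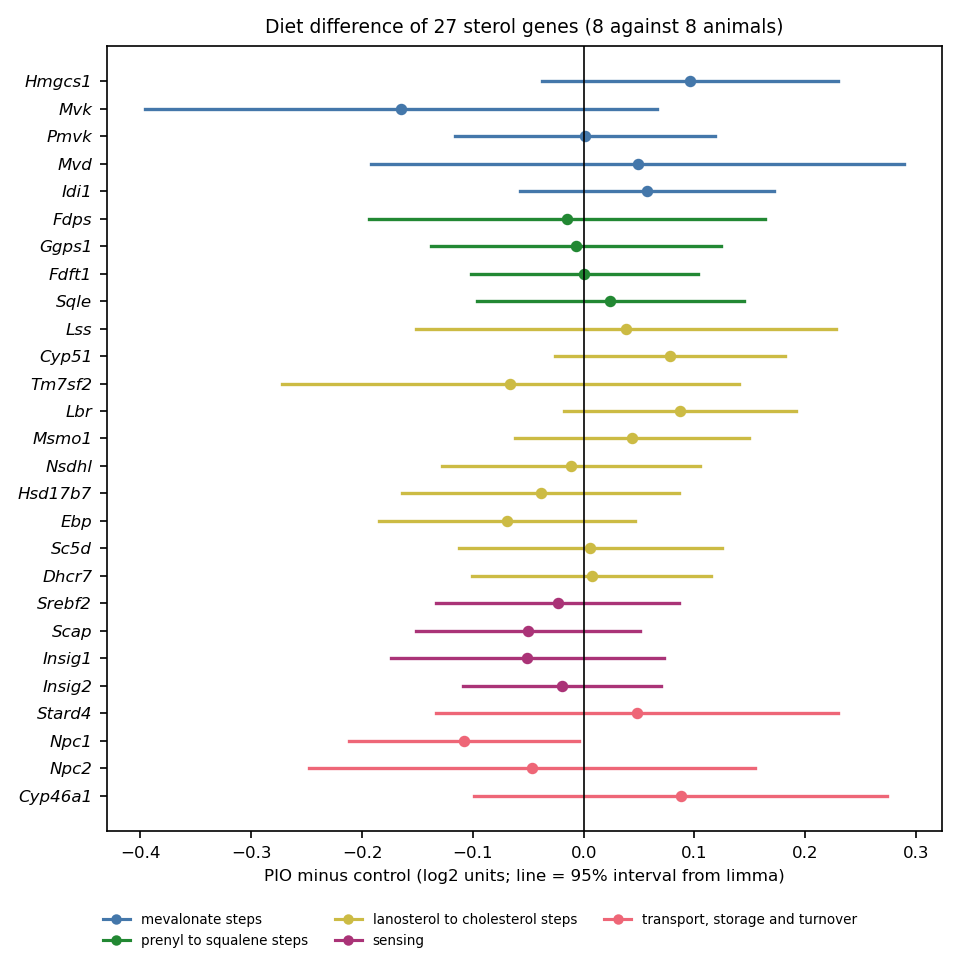
Difference between PIO and control in log2 units for the 27 measured members, grouped by step of the pathway. Points are the limma estimates from 8 against 8 animals and lines their 95% intervals. The estimates lie between -0.17 (Mvk) and 0.096 (Hmgcs1), and the Npc1 line alone stays below 0 before adjustment over all genes.

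Among the mevalonate steps, 4 of 5 members were higher and 1 lower in PIO, and 0 of 5 passed the test. Hmgcs1, which makes HMG-CoA and so feeds the pathway, ranged from 13.16 to 13.71 log2 units in control animals with a median of 13.50, and from 13.46 to 13.73 in PIO animals with a median of 13.56. The diets overlapped over nearly the whole range, and the lowest value was that of control animal 4. The difference for Hmgcs1 was 0.096 ± 0.063 (SE; limma adjusted p = 0.792). Mvk, mevalonate kinase, ranged from 6.76 to 7.20 in controls (median 6.92) and from 6.42 to 7.26 in PIO animals (median 6.80). PIO animals 10 and 11 were the lowest of all 16 for Mvk and PIO animal 13 was the highest. Its difference of -0.17 ± 0.11 (SE) had a limma adjusted p of 0.792. Pmvk and Mvd, which act after Mvk, and Idi1, which isomerises the first prenyl unit, differed by 0.0012, 0.049 and 0.057 log2 units.

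The prenyl to squalene steps gave the smallest differences, 2 of 4 members higher and 2 lower. Fdps makes farnesyl diphosphate, from which both sterols and lipid anchors of proteins are built. Its level ranged from 10.58 to 10.96 in controls (median 10.78) and from 10.45 to 11.10 in PIO animals (median 10.71). The PIO values thus spread to both sides of the control values, with animal 11 lowest and animal 13 highest, and the means differed by -0.015 ± 0.084 (SE; limma adjusted p = 0.981). Sqle, squalene epoxidase, lay between 10.84 and 11.14 in controls (median 11.04) and between 10.89 and 11.22 in PIO animals (median 11.01). Ggps1, which diverts farnesyl diphosphate to geranylgeranyl diphosphate for protein anchors, lay between 9.87 and 10.37 in controls (median 10.04) and between 9.90 and 10.22 in PIO animals (median 10.05). Both genes overlapped between diets throughout, with differences of 0.024 for Sqle and -0.0067 for Ggps1. Fdft1, squalene synthase, differed by 0.0006.

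Of the 10 members from lanosterol to cholesterol, 6 were higher and 4 lower, and 0 passed the test. Lbr and Tm7sf2 encode sterol reductases that act on the same double bond, Lbr in the inner nuclear membrane, where it also binds lamins. Lbr ranged from 9.56 to 9.84 in controls (median 9.68) and from 9.57 to 9.90 in PIO animals (median 9.81). The upper parts of the ranges were filled mainly by PIO animals, but PIO animal 13 was next to the lowest of all. The Lbr difference was 0.087 ± 0.050 (SE; limma adjusted p = 0.762). Tm7sf2 lay between 7.89 and 8.28 in controls (median 8.13) and between 7.69 and 8.37 in PIO animals (median 7.96), and its difference was -0.066 ± 0.097 (SE).

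Cyp51, the lanosterol demethylase, ranged from 10.27 to 10.45 in controls (median 10.36) and from 10.28 to 10.62 in PIO animals (median 10.42). Its 4 highest values were those of PIO animals 13, 15, 9 and 16, and the difference of 0.078 ± 0.049 (SE) had a limma adjusted p of 0.773. The remaining members of these steps differed by -0.069 (Ebp, the sterol isomerase) to 0.044 (Msmo1, which starts the removal of methyl groups). Between them lay Hsd17b7 at -0.039, Nsdhl at -0.011, Sc5d at 0.0059, Dhcr7, the last reductase of one branch, at 0.0074, and Lss, lanosterol synthase, at 0.038.

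By the probe set used, all 4 sensing genes were lower in PIO, by small amounts that did not pass the test. Srebf2, which encodes SREBP-2, ranged from 10.27 to 10.50 in controls (median 10.41) and from 10.13 to 10.58 in PIO animals (median 10.39). Insig1, itself a target of SREBP-2, ranged from 10.23 to 10.47 in controls (median 10.37) and from 10.03 to 10.48 in PIO animals (median 10.32). Insig2, the related retention protein, ranged from 11.17 to 11.41 in controls (median 11.22) and from 11.13 to 11.36 in PIO animals (median 11.21). In all of these the diets overlapped and PIO animals held the lowest value. The differences were -0.024 (Srebf2), -0.050 (Scap), -0.051 (Insig1) and -0.020 (Insig2), and the smallest limma adjusted p among them was 0.859.

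Transport and turnover held the member with the smallest p. Npc1 and Npc2 pass cholesterol out of the lysosome. Npc1 ranged from 9.73 to 10.06 in controls (median 9.84) and from 9.64 to 9.84 in PIO animals (median 9.78). Control animals 3 and 8 were the highest and PIO animals 13 and 15 the lowest, with overlap between. The means were 9.86 ± 0.11 and 9.75 ± 0.072 (SD, n = 8 each), a difference of -0.11 ± 0.049 (SE; limma adjusted p = 0.705). The Npc1 difference was -0.080 in the arrays numbered 10 to 24 alone and -0.054 with the oligodendrocyte marker mean as a covariate, and its unadjusted p was above 0.05 in both.

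Npc2 differed by -0.047 and Stard4, a carrier of sterol through the cytosol, by 0.048. The second Stard4 probe set, with a mean of 9.77 beside 9.87 for the first, differed by 0.22, and the third by 0.026. The first and the second correlated at 0.82 with diet means subtracted. In the fit with second probe sets Stard4 had an unadjusted limma p under 0.05, but 0 members passed the adjusted threshold. Cyp46a1, which hydroxylates cholesterol in neurons so that it can leave the brain, ranged from 11.38 to 11.79 in controls (median 11.59) and from 11.33 to 12.00 in PIO animals (median 11.74). PIO animals held both the lowest and the highest value, and the difference was 0.087 ± 0.088 (SE; limma adjusted p = 0.868). Over 30 alternatives it lay between -0.067 and 0.14 and was below 0 in 1. That 1 was not the removal of an animal, which gave 0.041 to 0.14. The highest Cyp46a1 values, 12.00 and 11.82, were those of PIO animals 14 and 15. Their striatal marker means, 0.88 and 1.03, were the highest of all animals, and a link between the values was not tested.

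Besides the 29 members, a list of 37 other sterol and isoprenoid genes was examined, 31 of them above the filter. Of these, 15 were higher and 16 lower in PIO and 0 passed the test, with a median of -0.0064 log2 units. At an unadjusted p under 0.05 there were 2 of 31, against the same 7.0% of all genes. Nus1, a subunit of the enzyme that makes dolichol from prenyl units, differed by 0.11 ± 0.033 (SE; limma adjusted p = 0.589). Srebf1, which encodes the SREBP that acts mainly on fatty acid genes, differed by -0.33 ± 0.15 (SE; limma adjusted p = 0.706). Next by p were Zmpste24, a protease for prenylated proteins, at -0.11 and Erlin1, an endoplasmic reticulum protein, at 0.17.

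The arrays also carry numbers, whose meaning no label explains: 6 were numbered 1 to 6 (4 control and 2 PIO) and 10 were numbered 10 to 24 (4 control and 6 PIO). With diet in the model, limma called 1 gene between the ranges, 0.00815% of those tested, and 0 of 27 members. An unadjusted p under 0.05 was reached by 1 of 27 members, Fdps, which was higher in the higher numbers, beside 10.2% of all genes (4.48% higher and 5.71% lower). Fdps ranged from 10.58 to 10.78 in arrays 1 to 6 (median 10.65) and from 10.45 to 11.10 in arrays 10 to 24 (median 10.86). All 4 control animals of the higher numbers lay above all 4 of the lower numbers, while PIO animals 11 and 12, of the higher numbers, lay below both PIO animals of the lower numbers. The difference was 0.18 ± 0.081 (SE; limma adjusted p = 0.477).

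Cyp46a1 ranged from 11.33 to 11.63 in arrays 1 to 6 (median 11.58) and from 11.43 to 12.00 in arrays 10 to 24 (median 11.77). The highest 7 of the 16 values came from the higher numbers, and the difference was 0.18 ± 0.086 (SE; limma adjusted p = 0.496). With the striatal marker mean as a covariate the Cyp46a1 difference was 0.13. The next members by p were Ggps1 at -0.11, Sqle at 0.10 and Tm7sf2 at 0.17, each with an adjusted p of 0.56 or more. In the list of other sterol genes 4 of 31 had an unadjusted p under 0.05, led by Srebf1 at -0.43 ± 0.13 (SE; limma adjusted p = 0.257) and followed by Gramd1b at 0.11, Stard5 at -0.33 and Zmpste24 at -0.13.

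Although diet means hardly differed, the enzymes of the pathway varied together between animals. Over the 171 pairs of 19 measured synthesis enzymes the median Pearson r was 0.30 with diet means subtracted, beside 0.024 over all 75221245 pairs of genes tested. An r above 0.5 was found in 56 pairs of enzymes, 32.7%, beside 7.7% of all pairs. These are descriptions with no test: the points are the same 16 arrays for each pair, and the pairs share genes. The range ran from -0.73 for Tm7sf2 and Lbr to 0.84 for Sqle and Nsdhl.

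Mvk, Nsdhl, Fdps, Ebp and Cyp51 had the highest median r with the other enzymes, from 0.57 for Mvk to 0.53 for Cyp51. They belong to all 3 stages of the pathway, and after Sqle with Nsdhl the highest pairs were Sc5d with Mvk at 0.835 and Fdps with Nsdhl at 0.829, from different stages, and Nsdhl with Ebp at 0.825 and Sqle with Fdps at 0.822, from the same stage. Lbr and the Ggps1 probe set used went the other way, with medians of -0.33 and -0.35. Lss, at 0.005, and Hmgcs1, at -0.013, stood near 0.

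**Figure D2:**
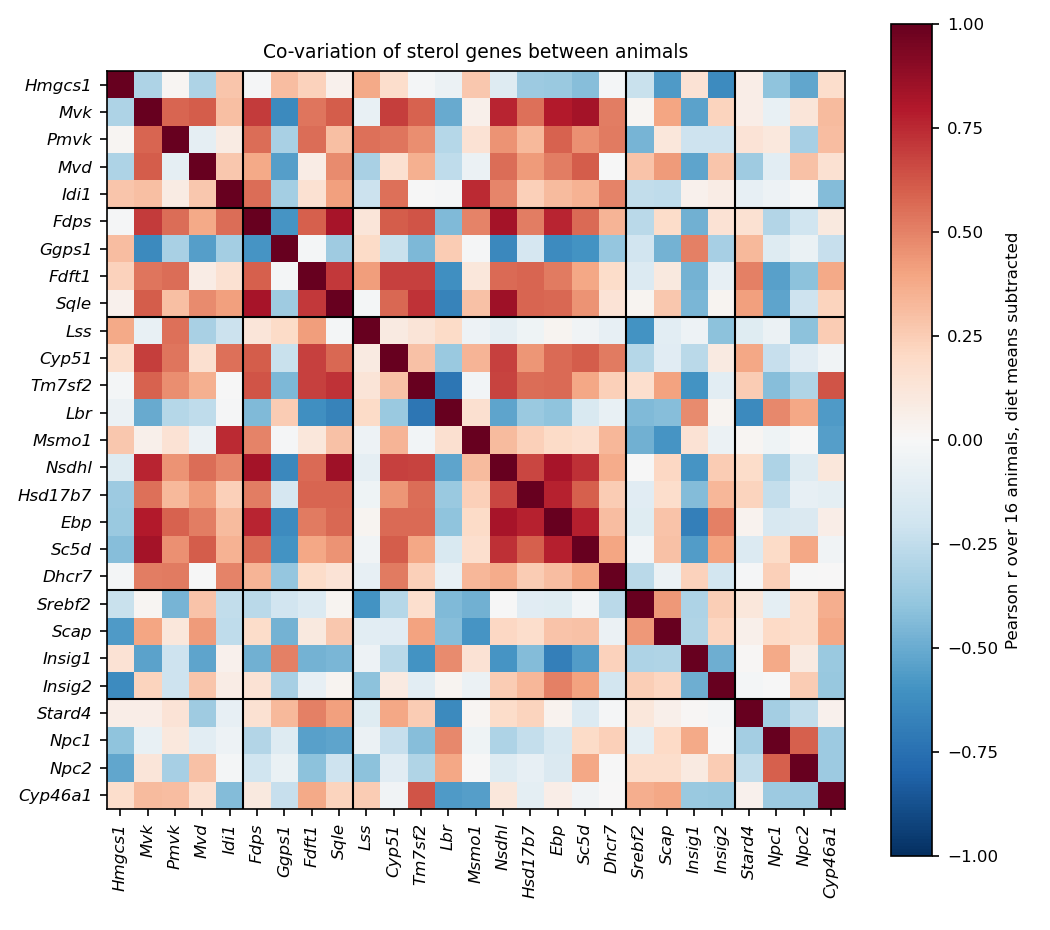
Pearson r between each pair of the 27 members over 16 animals, with each diet's mean subtracted. Colour runs from -1 (blue) to 1 (red), genes are in pathway order and black lines part the groups. The red block from Fdps to Sc5d is broken by the blue bands of Ggps1 and Lbr, and by Lss, and Insig1 is blue against most enzymes.

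The sensing genes did not share this pattern. The median r was -0.093 over 76 pairs of an enzyme with a sensing gene, of which 2 exceeded 0.5, and -0.043 over the 6 pairs among the sensing genes. Srebf2 had a median r of -0.20 with the enzymes. Insig1 was opposite to most of them, with a median of -0.43 and its lowest r, -0.68, with Ebp, whereas Insig2 stood at 0.031. Between enzymes and the transport genes the median was -0.035, and Npc1 and Npc2 correlated with each other at 0.60.

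The values behind the pattern differed by less than 1 log2 unit. Nsdhl was 10.27 in PIO animal 13 and 10.24 in PIO animal 15, and 9.94 and 9.95 in PIO animals 11 and 12. Sqle was 11.20 and 11.22 in animals 13 and 15, and 10.91 and 10.89 in animals 11 and 12. Ebp was 9.36 in animal 13 and 8.93 in animal 11. Insig1 was lowest of all in animal 13, at 10.03, and highest in animal 12, at 10.48. PIO animal 11 was thus low and animal 13 high for many enzymes at once. Animal 11 had the lowest value of its diet for 11 of 19 enzymes, beside 22.4% of all genes, and animal 13 the highest for 9 of 19, beside 22.1% of all genes.

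**Figure D3:**
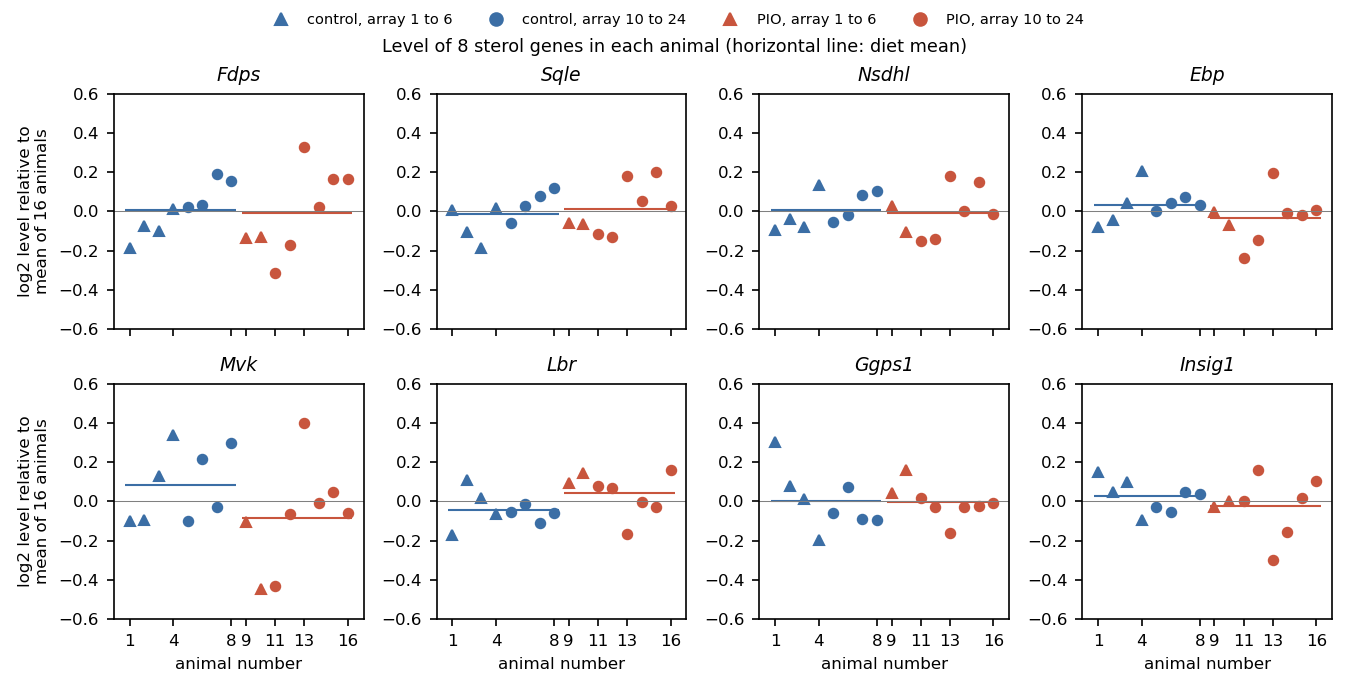
Level of 8 members in each animal, in log2 units relative to the gene's mean over 16 animals. Blue marks control and red PIO, triangles arrays 1 to 6 and circles arrays 10 to 24, and horizontal lines the diet means. PIO animals 11 and 13 lie far apart for Fdps, Ebp and Mvk, and the order is turned for Lbr, Ggps1 and Insig1.

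The co-variation rested in part on those animals. Without PIO animals 11 and 13, which were chosen after their values were seen, the enzymes' median r was 0.13 and 14.6% of pairs exceeded 0.5, beside 8.20% of all pairs. Over the 8 PIO animals alone the median was 0.38, with 39.8% of pairs above 0.5 beside 17.7% of all pairs. Over the 8 control animals alone it was 0.041, with 22.2% above 0.5 beside 15.6%. The difference between the diets was not tested. Over the 10 arrays of the higher numbers the median was 0.37, with 40.4% above 0.5 beside 13.0%, and over the 6 of the lower numbers it was 0.11, with 25.7% beside 22.5%.

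The spread between animals was also larger in PIO for 14 of 19 enzymes by SD, beside 59.0% of all genes. The median ratio of the PIO to the control SD was 1.40 for the enzymes and 1.11 for all genes. Without PIO animal 11 the count was 13 of 19, beside 54.0% of all genes. The mean over the 19 enzymes ran from -0.056 to 0.070 in control animals and from -0.16 in animal 11 to 0.12 in animal 13 in PIO, in log2 units relative to each gene's mean.

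Markers of cell types and of neighbouring tissue varied between the animals, and their part in the results was not tested beyond the values given here. Markers of hippocampal neurons were above the filter for 6 of 6 genes and general neuronal markers for 7 of 7. The mean of 7 choroid plexus markers ran from -3.37 to 2.67 log2 units in controls and from -3.79 to 2.91 in PIO animals, and the extremes in PIO were animals 13 and 11. The mean of 5 striatal markers reached 0.33 in controls and 1.03 in PIO. The mean of 8 oligodendrocyte markers ran from -0.17 to 0.35 in controls and from -0.56 to 0.12 in PIO, with medians of 0.096 and -0.10. The mean of 8 microglial markers ran from -0.18 to 0.40 in controls (median 0.15) and from -0.25 to 0.19 in PIO (median -0.16). With the choroid plexus, striatal or oligodendrocyte mean also removed from each gene, the enzymes' median r was 0.28, 0.32 and 0.34, and with the astrocyte, microglial, neuronal or thalamic mean removed it was 0.31 to 0.32. No such value is given here for the hippocampal neuron mean, which ran from -0.39 to 0.29 in PIO animals. That mean was 0.29 in PIO animal 11 and -0.12 in PIO animal 13, where the enzymes' mean was -0.16 and 0.12. In PIO animals 14 and 15 the hippocampal neuron mean was -0.37 and -0.39, and the enzymes' mean 0.037 and 0.085. These means had opposite signs in every PIO animal except animal 9, where they were 0.068 and 0.035. Among controls they had the same sign in animals 4, 5 and 8 and opposite signs in the rest. How far the hippocampal neuron mean and the enzymes go together was not tested.

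The correlation of Hmgcs1 with the other enzymes differed between its probe sets, of which 5 were above the filter. The one with the highest mean, which by its suffix may share sequence with other transcripts, had a median r of -0.013 with the other enzymes and 0 of 18 above 0.5. The second had a median of 0.56 and 12 of 18 above 0.5, and the fourth 0.33 and 4 of 18. The third and the fifth had medians of -0.15 and -0.14, with 0 of 18 above 0.5, so 3 of the 5 probe sets had a median below 0. The first correlated with the second at -0.12, with the third at 0.92 and with the fourth at 0.67. The second correlated with the third at -0.34. Their diet differences were 0.096, -0.038, 0.050, 0.13 and -0.42 log2 units from the first to the fifth. Over the 15 members with at least 2 probe sets above the filter, the first and the second correlated with a median r of 0.46, from -0.13 for Ggps1 to 0.89 for Npc2. The first Ggps1 probe set, which was negative against most enzymes, correlated at -0.45 with the fourth probe set of the same gene.

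**Figure D4:**
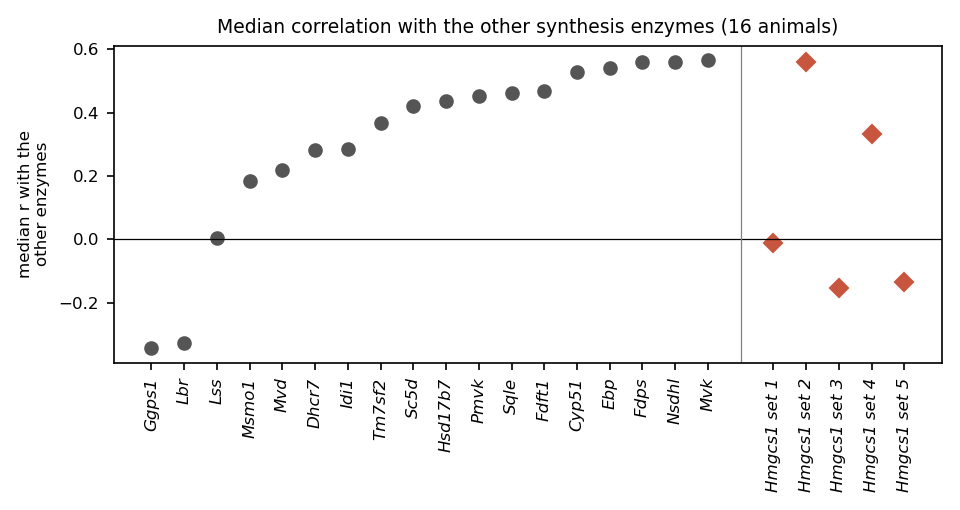
Median Pearson r of each synthesis enzyme with the others over 16 animals, diet means subtracted (grey circles), and the same for each of the 5 probe sets of Hmgcs1 (red diamonds). Ggps1 and Lbr lie below -0.3 and Mvk, Nsdhl and Fdps above 0.55, and the second Hmgcs1 probe set lies with the latter at 0.56 while the first is at -0.013.

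To find the genes whose pattern was most like that of a sterol gene, 3 scans over 12265 genes were run, each with a permutation test of 100000 resamples within diets and Benjamini-Hochberg adjustment over the genes of that scan alone. Hmgcs1 was the anchor of the first scan. Fdps and the second Hmgcs1 probe set were added as anchors after the pairwise correlations had been seen. With Hmgcs1 0 genes passed an adjusted p of 0.05, and at an unadjusted permutation p under 0.05 there were 679 with positive and 935 with negative r, 5.54% and 7.62% of the genes.

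By its first probe set, the closest non-members to Hmgcs1 were Zbtb14 (r = 0.912), Serinc3, Dmd, C130071C03Rik, Prkaca, Hnrnph2, Nptn and Umad1 (r = 0.822). The most opposite were Timm23 (r = -0.877), Dicer1 and Hexim1. For Zbtb14 Spearman's rho was 0.868 (permutation p = 7e-05), the p of r was 4e-05 by permutation and 0.199 after adjustment, and r was 0.760 without control animal 4 and PIO animal 9, which lay farthest from the Hmgcs1 median. Of the other members, the nearest to this Hmgcs1 probe set was Lss (r = 0.382). The most opposite was Insig2 (r = -0.627, unadjusted permutation p = 0.0177, adjusted p = 0.305). The Insig2 value was -0.290 without the same 2 animals and so rested largely on them. With the second Hmgcs1 probe set r was -0.092 for Lss and -0.012 for Insig2, and the closest non-member was Shisa5 (r = 0.856). The first and second probe sets of Insig2 correlated at -0.033, so these values may not hold for the genes.

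With Fdps as the anchor, 4 genes passed: 3 with positive r, 0.0245% of the genes, and 1 with negative r, 0.00815%. At an unadjusted permutation p under 0.05 there were 10 members among the 9.84% of genes with positive r and 1 member, Ggps1, among the 5.98% with negative r. Fdps was made an anchor because it correlated with these members, so nothing is read from that count. Arntl, which encodes the clock factor BMAL1, had r = 0.904 and rho = 0.868 over 16 animals (permutation p = 1e-05 for r, the smallest these resamples can give, and 6e-05 for rho; adjusted p for r = 0.0307). Ube2b, a ubiquitin-conjugating enzyme, had r = 0.903, Snrpc, a splicing protein, r = 0.874, and Adgrg1, an adhesion receptor, r = -0.823, all with the same adjusted permutation p of 0.0307. Each of the 4 rests on a permutation p at the smallest possible value, and adjustment over the 3 scans was not made.

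Arntl had been picked by its r over these same animals, so the values in subsets of them are a description and no independent check. Arntl was 9.52 in PIO animal 13, the highest for Fdps, and 8.75 in PIO animal 11, the lowest for Fdps. Without those 2 animals, which are the farthest from the Fdps median, r was 0.823. It was 0.884 over control and 0.910 over PIO animals, 0.906 over arrays 10 to 24 and 0.733 over arrays 1 to 6. Ube2b gave similar values, 0.920 without those 2 animals, 0.888 over control and 0.909 over PIO animals. A list of 16 clock genes, drawn up after Arntl had been seen and so given no test, held 1 gene with an unadjusted permutation p under 0.05 in the Fdps scan, Arntl itself. The other genes of the list had r from -0.359 (Nr1d2) to 0.352 (Bhlhe40), with Clock, the partner of BMAL1, at 0.169.

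**Figure D5:**
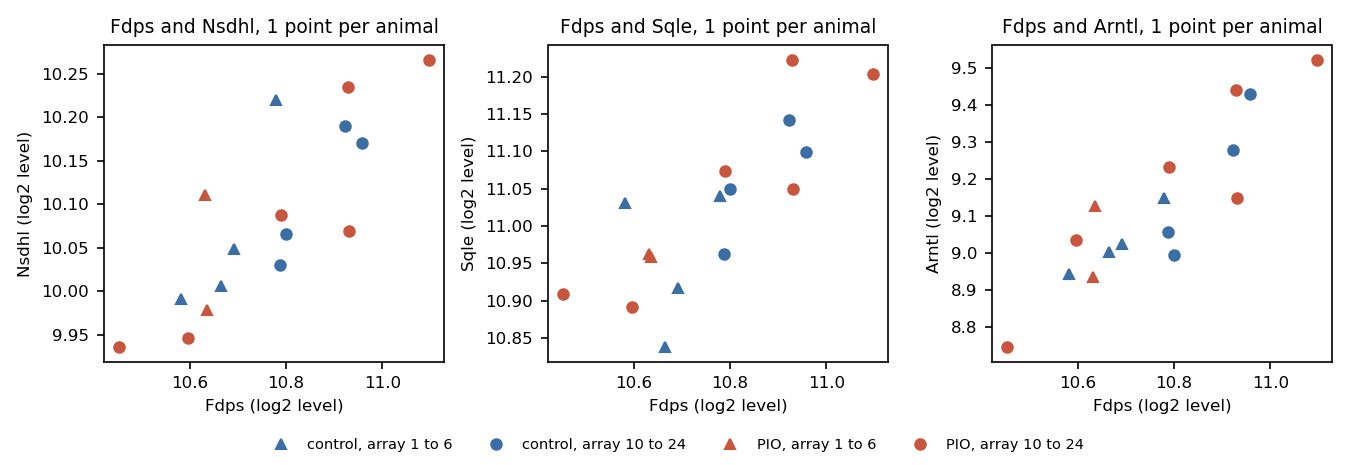
Level of Nsdhl, Sqle and Arntl against that of Fdps in log2 units, 1 point per animal. Blue marks control and red PIO, triangles arrays 1 to 6 and circles arrays 10 to 24. Points rise from PIO animal 11 at the left to PIO animal 13 at the right in each panel, with Pearson r of 0.829, 0.822 and 0.904 after diet means were subtracted.

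Among the other 26 members, Nsdhl ranked 24 and Sqle 33 of 12265 genes by r with Fdps. Both were in the top 1% of genes, and with Ebp (r = 0.762), Mvk (0.696) and Tm7sf2 (0.632) a total of 5 members were in the top 5%. Fdps was made an anchor because it correlated with the enzymes, so nothing is read from these ranks either. None of these 5 members passed the adjusted threshold in the Fdps scan: the adjusted permutation p was 0.0886 for Nsdhl and Sqle and 0.110 for Ebp. Without PIO animals 11 and 13 the r with Fdps was 0.729 for Nsdhl and 0.766 for Sqle, but 0.506 for Ebp and 0.430 for Mvk. Over arrays 1 to 6 it was 0.797 for Nsdhl and 0.090 for Sqle, from 6 animals. Ggps1, by the probe set used, was the most opposite member at r = -0.592, and at -0.588 without animals 11 and 13. That probe set correlated negatively with the gene's other probe sets, so the sign may not hold for the gene.

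With the second Hmgcs1 probe set as the anchor, 0 genes passed the adjusted threshold, and 10 members were among the 10.7% of genes with positive r and 1, Lbr, among the 6.29% with negative r at an unadjusted permutation p under 0.05. Nsdhl (r = 0.768) and Tm7sf2 (0.728) were in the top 1% of genes and 6 members in the top 5%, with Mvk, Hsd17b7, Ebp and Sqle as the other 4. Lbr was the most opposite member, at r = -0.673. This probe set too was chosen for its correlation with the enzymes, and its values with them repeat that and add no independent measurement.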

How the data were processed

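Hippocampal RNA of 16 animals was measured on Affymetrix arrays. The deposited series table holds 1 log2 value per probe set and array, and the log2 scale was taken from the values, which run from 0.33 to 16.6 with array medians of 5.65 to 5.76. The submitters' processing notes list MAS5, GCRMA and R 2.7.1 with no order, and the tool behind the values is not given in them. A summary that models background can compress low values. Precision is limited by how many arrays there are. The correlation between any 2 arrays, over all probe sets that are no controls, was 0.994 to 0.998.

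Of 45101 probe sets, 64 controls were left out and 34945 had 1 gene symbol. The RefSeq gene table changed 0 symbols. Each gene was read from its brightest probe set, and the 12266 genes whose mean exceeded 3.58 log2 units (percentile 40 of probe sets) were tested. The diets were compared by limma 3.58.1 (lmFit, eBayes) under R 4.3.3, adjusted by Benjamini-Hochberg across those genes at a threshold of 0.05. A second fit added the array number range to diet. Correlations used values with diet means subtracted, in Python 3.11.15 with numpy 2.4.6. Scripts were tested on simulated data.

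The members and lists were chosen with earlier results of these data known. Values by animal were given for the 8 members with the smallest p over both fits and for Hmgcs1, Srebf2, Insig1, Insig2 and Cyp46a1. The 8 highest and 3 lowest genes were named for the Hmgcs1 scan, and up to 4 other sterol genes by p. Mvk, Nsdhl, Sqle, Ebp and the genes of the Fdps scan were named after their values were seen. Replicates are separately numbered subjects, per the labels. No sequence of chromosome 18 and no protein sequence was used here.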

Additional observations from a re-analysis of the deposited data

Results flagged for a closer look

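In 3 of 54 combinations of a member and a diet, 1 animal lay far from the other 7, by Dixon's test of the gap over the range. Chance alone marks about 1 in 20 such groups, which is close to the share found. Insig2 was 11.41 log2 units in control animal 4, and the median of the other controls was 11.21. Pmvk was 9.78 in control animal 3, and the others' median was 9.54. Stard4 was 10.3 in control animal 1, and the others' median was 9.82. All 3 were high values in control animals, and 0 of them came from PIO animals 11 or 13.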

How the results depend on the processing

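No diet call appeared under any of the 30 alternatives run: 0 genes and 0 members passed the adjusted threshold by limma in each, and the smallest adjusted p of a member was 0.519. The median diet difference over members lay between -0.027 and 0.028 log2 units and changed sign in 18 of the 30. Between array number ranges 0 members were called under 21 alternatives (smallest adjusted p 0.255). The count of all genes called there was 1. It was 2 with quantile normalization, 2 with the description code group as a block and 0 with the striatal mean as a covariate, and 0 to 3 with an animal left out (0 when the animal was control 6, control 7, PIO 9 or PIO 10, 2 when it was control 2, control 3, control 8 or PIO 12, and 3 when it was PIO 11).

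The enzymes' median r, 0.30, was 0.11 in arrays 1 to 6 alone, 0.041 in control animals alone and 0.13 without PIO animals 11 and 13, settings chosen after seeing the data. It was 0.21 to 0.35 with 1 animal left out and 0.27 to 0.39 under quantile normalization and a common median. The count of genes correlated with Hmgcs1, 0, was 4 with Fdps as the anchor. The causes were not tested. No paired analysis was possible because the animals are numbered 1 to 8 and 9 to 16 and the diets share no number.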
